A study of Mus musculus with 9 samples.

Results

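Clstn3, Gpr128, Tmem27, Tmed6, Palm3 and Vsig2 are 6 mouse genes for proteins that sit in or on cell membranes. They were chosen on measured values, as genes expressed in KP and KPS-HET lung tumour cells and near absent in KPS cells, out of 23224 genes in the deposited table. All 6 passed the filter on low counts, which 15663 genes passed. Because the choice used the levels in KPS against the other 2 groups, the differences of these 6 genes from KPS are given below as a description, with no test. The description "near absent" held for Clstn3, Gpr128 and Tmem27, held in part for Tmed6 and Palm3, and did not hold for Vsig2, which kept 23.1 to 41.6 CPM in KPS (CPM are counts scaled to a common library total).

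The study compared lung cancer cells of mice that differ in Smarca4, which encodes BRG1, the motor of BAF complexes that reposition nucleosomes. KPS mice had 2 floxed Smarca4 alleles (n = 3 libraries), KPS-HET mice had 1 floxed and 1 wild-type allele (n = 2), and KP mice had wild-type Smarca4 (n = 4). Mice of all 3 groups also shared other engineered alleles, not all of which are named here. Among these were homozygous floxed Trp53 and a tdTomato reporter at Rosa26 that Cre switches on, in a mixed B6;129S2 background. Cre came from an adenovirus with the CCSP promoter, a promoter of airway club cells, instilled into the trachea, and the labels give no ages. Cells sorted from the lungs of moribund mice gave low-input polyA libraries, with totals of 21368864 to 37114352 estimated counts in KPS, 12607471 to 22705446 in KPS-HET and 15275259 to 29231565 in KP. No label states that every library is from its own mouse, and the p-values therefore reflect variation among these libraries, part of which may be technical.

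Smarca4 itself had 55.5, 39.9 and 47.6 CPM in KPS libraries, 76.4 and 97.2 CPM in KPS-HET libraries and 137, 124, 132 and 110 CPM in KP libraries. The order of the groups follows the number of floxed alleles, with no overlap between groups. Of all genes tested, 10.1% had each KPS library below each KP library, and 18.3% had each below each KPS-HET library. Against KP, Smarca4 fell by 1.40 ± 0.15 (log2, SE) in KPS (edgeR quasi-likelihood test, Benjamini-Hochberg adjusted p = 0.00214). Neither single step passed the same test. The log2 difference was -0.86 ± 0.18 for KPS over KPS-HET (adjusted p = 0.0551) and -0.53 ± 0.17 for KPS-HET over KP (adjusted p = 0.974). Counts per gene can include what a floxed allele still transcribes outside its deleted part, and the source of the Smarca4 counts left in KPS was not tested. The libraries were rich in alveolar type 2 transcripts, such as surfactant genes: the 6 markers of that cell type summed to 16630 to 50240 CPM in KPS, 45570 to 70170 CPM in KPS-HET and 61710 to 96830 CPM in KP. In such bulk libraries, fewer cells of a type and less RNA per cell cannot be told apart.

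Each of the 6 proteins has a distinct task at a membrane. Calsyntenins, such as Clstn3, are adhesion proteins best known at synapses, where they bind neurexins, and Vsig2 belongs to an immunoglobulin family of cell junction and adhesion proteins. Gpr128 (Adgrg7) is an orphan adhesion G protein-coupled receptor of the gut lining, and Tmem27 (collectrin, Cltrn) is a protein that brings amino acid transporters to the brush border of kidney tubules. Tmed6 is a p24 protein, one of the receptors that load cargo into vesicles between the endoplasmic reticulum and the Golgi, and Palm3 is a paralemmin, anchored to the inner face of the plasma membrane by lipid.

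The promoter windows of the 4 genes that kept the smallest share of their KP level are shown because the results below turn on these genes. Each window runs from 250 bases before to 50 bases after a gene start in RefSeq (build GRCm38.p6), reads 5′ to 3′ on the strand of the gene, and has its CpG dinucleotides, the usual sites of DNA methylation, in capitals. RefSeq gave a window for 5 of the 6 genes, with a pair of windows for Clstn3 and for Tmem27, of which the first is printed. The windows lie at chr6:124464735-124465034 on the minus strand for Clstn3, chr16:56795809-56796108 on the minus strand for Gpr128, chrX:164089937-164090236 on the plus strand for Tmem27, and chr8:107065595-107065894 on the minus strand for Tmed6.
Clstn3: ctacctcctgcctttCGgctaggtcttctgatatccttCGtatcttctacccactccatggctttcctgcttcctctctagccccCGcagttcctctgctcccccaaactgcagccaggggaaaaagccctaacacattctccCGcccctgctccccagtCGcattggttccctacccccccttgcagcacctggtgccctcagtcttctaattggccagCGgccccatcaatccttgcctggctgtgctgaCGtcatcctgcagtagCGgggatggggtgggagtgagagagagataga
Gpr128: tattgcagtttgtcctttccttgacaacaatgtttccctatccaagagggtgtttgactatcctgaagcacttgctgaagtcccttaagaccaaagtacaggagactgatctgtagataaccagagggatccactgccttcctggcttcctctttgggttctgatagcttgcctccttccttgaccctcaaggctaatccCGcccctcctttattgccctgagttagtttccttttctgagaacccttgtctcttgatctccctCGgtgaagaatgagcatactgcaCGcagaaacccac
Tmem27: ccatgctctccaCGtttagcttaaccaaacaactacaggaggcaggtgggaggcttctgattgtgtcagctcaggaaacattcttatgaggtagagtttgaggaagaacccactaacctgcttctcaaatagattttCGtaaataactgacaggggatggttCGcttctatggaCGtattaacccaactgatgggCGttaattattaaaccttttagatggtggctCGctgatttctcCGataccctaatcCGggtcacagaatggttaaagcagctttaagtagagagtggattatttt
Tmed6: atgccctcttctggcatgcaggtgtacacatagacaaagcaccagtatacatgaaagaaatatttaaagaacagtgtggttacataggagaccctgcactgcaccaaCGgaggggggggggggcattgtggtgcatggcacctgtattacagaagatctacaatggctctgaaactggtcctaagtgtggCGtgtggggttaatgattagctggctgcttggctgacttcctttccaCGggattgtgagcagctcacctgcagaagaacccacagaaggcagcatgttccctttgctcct

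The printed windows of Clstn3 and Tmem27 held 8 CpG dinucleotides each, and those of Gpr128 and Tmed6 held 3 each. The second windows, not printed, held 6 in Clstn3 and 3 in Tmem27, and the window of Palm3 held 14. At least 1 CpG is present in 94.6% of all 32851 promoter windows of this length.

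A search on both strands for the letters of 7 motifs in all windows of the 5 genes gave 1 match. This match was AGATAA, which factors of the GATA family bind, at -136 in the Gpr128 window (found in 11.2% of all windows), and it overlapped none of the other motifs. Neither the HNF4 motif CAAAGTCCA nor the FOXA motif TGTTTAC was found, which 0.475% and 3.65% of all windows hold. The AP-1 motif TGANTCA (7.81%), the TEAD motif GGAATG (14.7%), the CEBP motif TTGCGCAA (0.183%) and the TATA box letters TATAAA (13.6%) were also not found. A match describes the letters and not the binding of a factor, and no match says only that these letters are not in these windows.

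Among the adhesion genes, Clstn3 had 0.165, 0.146 and 0 CPM in KPS libraries, from 6, 3 and 0 estimated counts. KPS-HET libraries had 14.0 and 13.6 CPM, and KP libraries had 50.7, 16.7, 26.3 and 11.7 CPM. The KPS libraries were at or close to the value that 3 counts would give there (0.0826 to 0.146 CPM), while the KPS-HET libraries lay inside the range of the KP libraries. The KPS mean was 0.393% of the KP mean and 0.751% of the KPS-HET mean. The fitted log2 fold change was -7.83 ± 0.79 (SE) for KPS over KP and -6.90 ± 0.81 for KPS over KPS-HET. Without KPS replicate 1 only 3 counts were left in KPS, where Clstn3 was 381-fold lower than in KP (95% counting interval 130 to 1850) and 200-fold lower than in KPS-HET (68.3 to 968). These intervals cover counting error only. The library left out was the KPS library with the most counts of the gene, which enlarges the loss. The values thus describe the remaining KPS libraries and are no bound for the group.

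Vsig2 had 41.6, 25.6 and 23.1 CPM in KPS libraries, 105 and 151 CPM in KPS-HET libraries and 190, 121, 258 and 229 CPM in KP libraries. Each KPS library was below each library of the other groups, but the gene remained readily measured in all 3. The KPS mean was 15.1% of the KP mean and 23.5% of the KPS-HET mean, with log2 fold changes of -2.73 ± 0.31 over KP and -2.09 ± 0.33 over KPS-HET. Of the 6 genes Vsig2 had the highest level in KP also per kilobase of exon (GENCODE exon lengths), with 101 CPM per kilobase, and its KP libraries did not overlap those of any other of the 6 on that scale.

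Gpr128, the receptor, had 0.0275, 0.388 and 0 CPM in KPS libraries, from 1, 8 and 0 estimated counts. KPS-HET libraries had 15.9 and 8.97 CPM, and KP libraries had 14.1, 6.32, 61.6 and 8.15 CPM. KP replicate 3 stood apart from the other KP libraries, whose levels were close to those of KPS-HET. The KPS mean was 0.615% of the KP mean and 1.12% of the KPS-HET mean, with log2 fold changes of -7.47 ± 1.31 over KP and -6.62 ± 1.34 over KPS-HET. Without KP replicate 3 the fold change over KP was -6.22. Without KPS replicate 2, the KPS library with the most counts, a single count was left in KPS. In the remaining KPS libraries Gpr128 was 1330-fold lower than in KP (95% counting interval 239 to 52700) and 734-fold lower than in KPS-HET (132 to 29000). Leaving out that library enlarges the loss, so these values are no bound for the group. A processed pseudogene, Gm15693, lies within Gpr128 on the opposite strand.

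Tmem27 had 0.716, 0 and 0 CPM in KPS libraries, so all 26 estimated counts of the group were in replicate 1. KPS-HET libraries had 8.52 and 14.8 CPM, and KP libraries had 24.7, 10.6, 59.1 and 17.5 CPM. KP replicate 3 was again the highest library, and the KPS-HET libraries overlapped the lower KP libraries. The KPS mean was 0.853% of the KP mean and 2.05% of the KPS-HET mean, with log2 fold changes of -6.60 ± 1.14 over KP and -5.33 ± 1.14 over KPS-HET. Without KPS replicate 1, which held all of these counts, no count was left. With a floor of 3 counts over the remaining KPS libraries, Tmem27 was there at least 404.4-fold lower than in KP and at least 168.4-fold lower than in KPS-HET. Leaving out that library enlarges the loss, so these values are no bound for the group. Without KP replicate 3 the fold change over KP was -5.98.

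Tmed6, the cargo receptor, had 0.385, 0 and 1.27 CPM in KPS libraries, 1.71 and 7.24 CPM in KPS-HET libraries and 11.9, 3.01, 22.7 and 14.3 CPM in KP libraries. It was the closest of the 6 to overlap between groups, since KPS replicate 3 was just below KPS-HET replicate 1. The KPS mean was 4.26% of the KP mean and 12.3% of the KPS-HET mean, with log2 fold changes of -4.54 ± 1.13 over KP and -2.99 ± 1.16 over KPS-HET. Without KPS replicate 3 the fold change over KP was -5.89 and that over KPS-HET was -4.35. The difference from KPS-HET was -3.74 without KPS-HET replicate 1 and -1.62 without KPS-HET replicate 2, so single libraries decided its size.

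Palm3 had 1.90, 0.437 and 1.27 CPM in KPS libraries, 14.2 and 16.0 CPM in KPS-HET libraries and 10.5, 7.95, 11.8 and 13.4 CPM in KP libraries. It was the most even of the 6 within KP, where the highest library was 1.69 times the lowest, against 9.75 times for Gpr128. The KPS mean was 11.0% of the KP mean and 7.97% of the KPS-HET mean, with log2 fold changes of -3.16 ± 0.47 over KP and -3.62 ± 0.52 over KPS-HET. Palm3 overlaps Il27ra on the opposite strand, a cytokine receptor gene with a KP mean of 0.535 CPM, and how strand was handled in the counting is not given in the sources used.

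**Figure D1:**
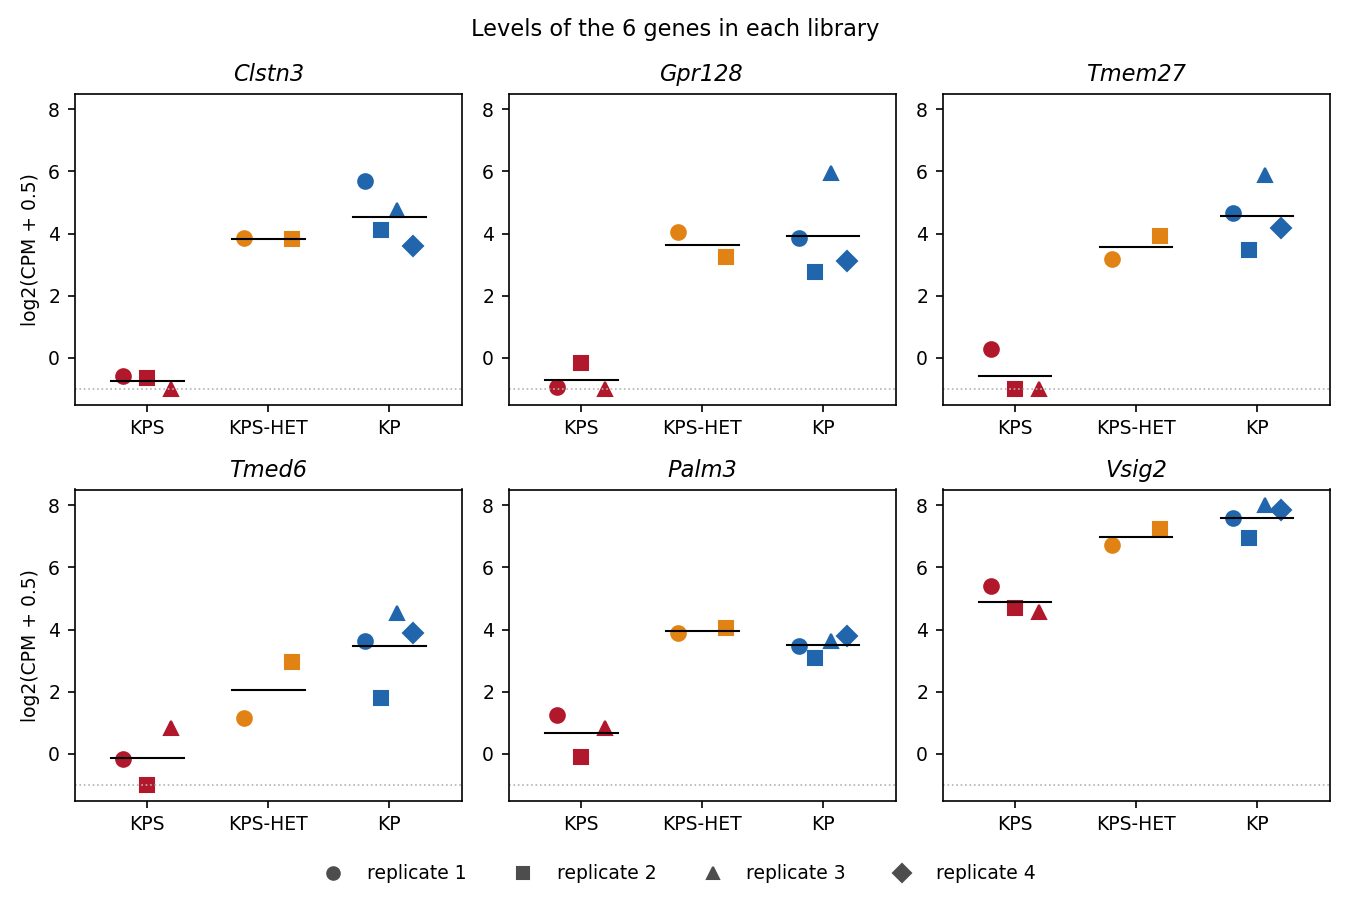
Levels of the 6 genes on the log2(CPM + 0.5) scale (vertical axis) in KPS, KPS-HET and KP libraries (horizontal axis), with 1 point a library, the replicate number as its shape, a bar at the group mean, and a dotted line at the value of a library with 0 counts. All KPS points lie below all KPS-HET and KP points in each panel, and the Vsig2 points of KPS stay far above the dotted line.

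In all 6 genes each KPS library was below each KP library, as in 10.1% of all genes tested, and below each KPS-HET library, as in 18.3% of all genes tested. The choice of the genes fixed this separation. Per kilobase of exon, the KP means were 101 CPM per kilobase for Vsig2, 18.1 for Tmem27, 14.9 for Tmed6, 8.36 for Gpr128, 5.30 for Clstn3 and 3.02 for Palm3. Neighbours in this order overlapped in their KP libraries, except Vsig2 and Tmem27. The KPS-HET order differed only in its lower part, with 64.8 for Vsig2, 7.54 for Tmem27, 5.14 for Tmed6, 4.60 for Gpr128, 4.18 for Palm3 and 2.78 for Clstn3.

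Ranked by the share of the KP mean left in KPS, among 13114 genes with a mean of at least 1 CPM in both KP and KPS-HET, Clstn3 was at rank 9 from the lowest. Gpr128 was at rank 14, Tmem27 at 18, Tmed6 at 40, Palm3 at 100 and Vsig2 at 153. Below 1% of the KP mean there were 18 genes, of which Clstn3, Gpr128 and Tmem27 are 3. Below 5% there were 45 genes, and below 20% there were 221, which include all 6.

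**Figure D2:**
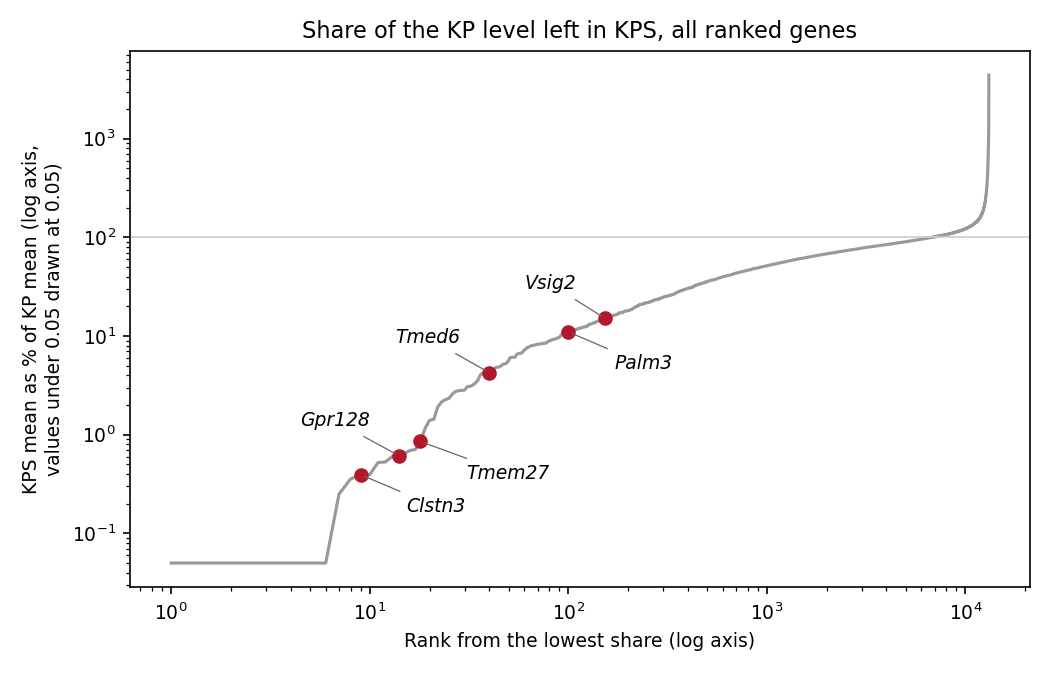
KPS mean as a percentage of the KP mean (vertical log axis) against the rank of the gene from the lowest share (horizontal log axis) for 13114 genes, drawn as a grey line, with the 6 genes as red points. Clstn3, Gpr128 and Tmem27 lie below 1%, Tmed6 below 5%, and Palm3 and Vsig2 between 10% and 20%.

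The comparison of KPS-HET with KP asks whether 1 floxed Smarca4 allele goes with a change, and it is the one contrast whose difference did not enter the choice of the 6 genes. The choice did ask that each gene be expressed in both KPS-HET and KP, so a gene lost in KPS-HET could not have been chosen, and the result is not free of the selection. None of them passed the test, and none of all 15663 genes did (0.0% called by edgeR, 627 genes at an unadjusted p below 0.05, 2 genes called by DESeq2 and 0 by limma-voom). The adjusted p was 0.974 for each of the 6 genes (edgeR). The log2 differences of KPS-HET over KP were -0.93 ± 0.60 (SE) for Clstn3, -0.86 ± 1.01 for Gpr128, -1.27 ± 0.97 for Tmem27, -1.55 ± 1.13 for Tmed6, 0.46 ± 0.46 for Palm3 and -0.64 ± 0.33 for Vsig2. Palm3 was the exception in direction, with both KPS-HET libraries above all 4 KP libraries, as in 6.77% of all genes tested. Gpr128 turned to 0.39 without KP replicate 3, Tmem27 moved to -0.59 without the same library, and Tmed6 stood at -0.83 without KPS-HET replicate 1 and at -2.92 without KPS-HET replicate 2. With 2 KPS-HET libraries these standard errors leave room for changes in either direction. For Gpr128, Tmem27 and Tmed6, with standard errors of 0.97 to 1.13, they also leave room for large losses.

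Among the KP libraries, 4 of the 6 genes had the same highest and the same lowest library. KP replicate 3 was the highest and KP replicate 2 the lowest of the 4 KP libraries for Gpr128, Tmem27, Tmed6 and Vsig2, as for 1727 of all 15663 genes tested (11.0%). Palm3 was lowest in KP replicate 2 and highest in KP replicate 4, and Clstn3 was highest in KP replicate 1 and lowest in KP replicate 4. Both libraries were singled out after their values were seen. The same order held for 7 of 10 tested liver genes of the hepatocyte list, 5 of 16 tested endoderm transcription factor genes, 5 of 18 tested brush border genes and 7 of 15 tested genes of the early secretory pathway. The share varied between the 24 lists. The order held for 0 of 6 tested alveolar type 2 markers, 0 of 5 alveolar type 1 markers, 0 of 4 club cell markers, 0 of 6 endothelial markers, 0 of 6 fibroblast markers and 0 of 5 neutrophil markers, for 1 of 10 macrophage markers, 3 of 15 BAF subunit genes, 2 of 9 p24 genes and 5 of 20 adhesion receptor genes. Summed over the hepatocyte list, levels were 25.3, 11.5 and 18.4 CPM in KPS libraries, 75.4 and 245.5 CPM in KPS-HET libraries and 206, 55.0, 906 and 222 CPM in KP libraries.

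Among single genes of these lists, Foxa3, a forkhead factor of liver and gut, had 6.97, 4.66 and 5.09 CPM in KPS libraries, 7.79 and 16.1 CPM in KPS-HET libraries and 26.0, 7.77, 57.5 and 22.3 CPM in KP libraries. Its KP libraries thus had the same highest and lowest library as Tmem27. These points share their libraries and depth, and no test was made of the likeness.

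**Figure D3:**
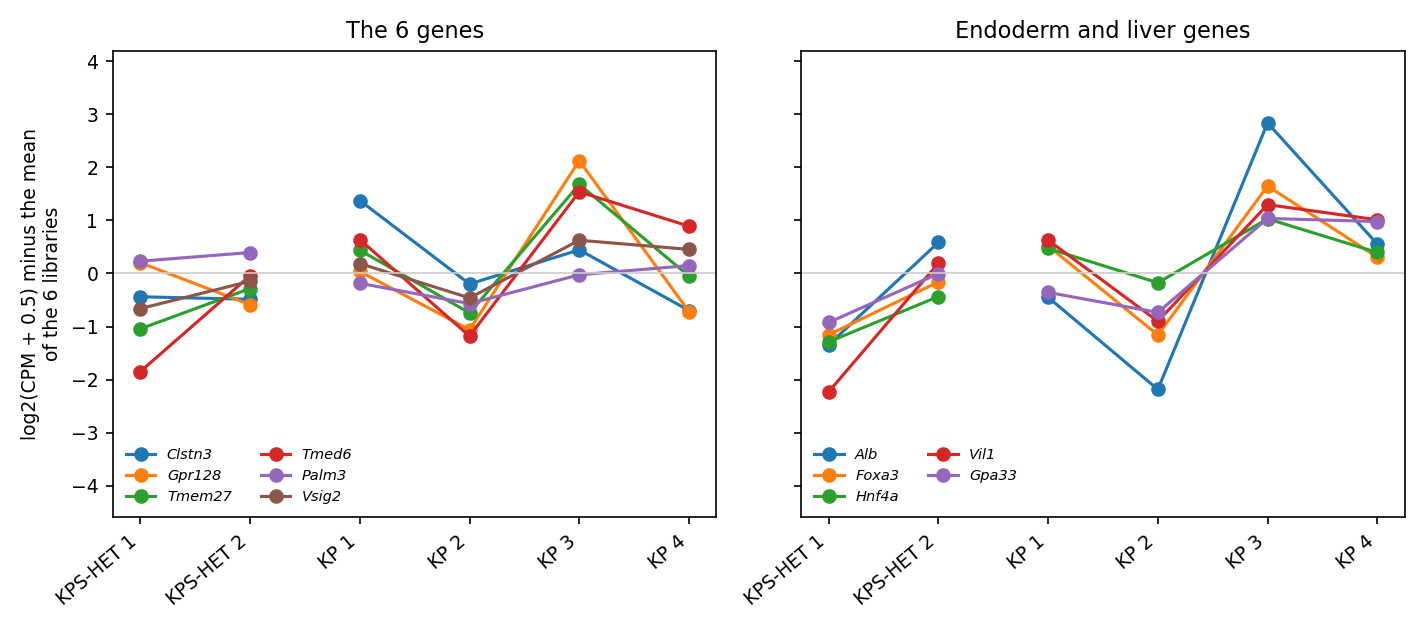
Each gene's log2(CPM + 0.5) minus its mean over the 6 libraries shown (vertical axis) in the 2 KPS-HET and 4 KP libraries (horizontal axis), for the 6 genes on the left and for Alb, Foxa3, Hnf4a, Vil1 and Gpa33 on the right, with lines joining libraries of 1 group only to guide the eye. On the left 4 of the 6 genes peak in KP replicate 3 and are lowest within KP in KP replicate 2, and Palm3 stays nearly flat. The genes on the right were picked by no stated rule, and all of them have this order within KP. Their lists as a whole do not. The order held for 7 of 10 tested hepatocyte genes, 5 of 16 endoderm factors, 5 of 18 brush border genes and 2 of 10 genes of the immunoglobulin family of Vsig2.

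Genes with the most similar pattern were found by the root mean square difference over the 9 libraries in log2(CPM + 0.5), after subtracting each gene's mean over the KP and KPS-HET libraries, among 13114 genes. The KPS libraries enter this difference, and the 6 genes were chosen on their KPS levels. Closeness between genes near 0 in KPS was thus partly set by the choice, and the distances are a description with no test. Tmem27 was among the 3 nearest genes of both Clstn3 (difference 0.709) and Gpr128 (0.734), and Clstn3 was the third nearest of Tmem27. The other nearest genes of Clstn3 were Acta2, smooth muscle actin (0.624), and Habp2, a plasma protease (0.637). Habp2 averaged 0.147 ± 0.254 CPM in KPS, 29.0 ± 3.57 CPM in KPS-HET and 37.2 ± 19.7 CPM in KP (SD, n = 3, 2 and 4). For Gpr128 they were Pf4, a platelet chemokine (0.534), and Cyp2c68, a cytochrome P450 (0.702). Cyp2c68 was also the nearest of Tmem27 (0.564), followed by Habp2 (0.694). It had 0 counts in all 3 KPS libraries, 5.69 and 14.8 CPM in KPS-HET libraries and 4.64 to 69.6 CPM in KP libraries.

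The less reduced genes had other nearest genes. For Tmed6 these were Gdf15, a stress cytokine (0.624), Tmeff2 (0.673) and Slc11a1, a metal ion transporter of macrophages (0.674). Palm3 was nearest to 9530008L14Rik (0.244), Sardh, a mitochondrial enzyme of choline breakdown (0.271), and Afp, alpha-fetoprotein (0.413). Vsig2 was nearest to Slc16a12, a transporter of the monocarboxylate family (0.207), Slc23a3 (0.305) and Afp (0.319). Afp had 4.17 to 13.7 CPM in KPS libraries, 34.1 and 60.9 CPM in KPS-HET libraries and 30.2 to 74.7 CPM in KP libraries. Between the 6 genes themselves, Clstn3, Gpr128 and Tmem27 lay 0.709 to 0.875 from each other, Palm3 and Vsig2 lay 0.581 apart, and Clstn3 and Vsig2 were the farthest apart at 1.58.

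The families and partners of the 6 genes were then read in KPS against KP, where edgeR called 3.28% of all genes tested as lower and 3.96% as higher. Of 55 tested relatives and partners, without the 6 genes, 3 were lower and 2 were higher. In KPS against KPS-HET, where 0.409% of all genes tested were called lower and 0.524% higher, none of the 55 was called, and none was called in KPS-HET against KP.

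Of the calsyntenins and neurexins, the partners of Clstn3, 0 of 2 tested genes were called. Clstn1, the nearest paralog, had 92.6 ± 21.0 CPM in KPS, 70.9 ± 12.2 CPM in KPS-HET and 44.5 ± 22.9 CPM in KP (SD, n = 3, 2 and 4), with a difference of 1.06 ± 0.39 from KP that did not pass the test (adjusted p = 0.132). Among 20 tested adhesion G protein-coupled receptors 2 were lower, 0 were higher, and the median log2 fold change was 0.28, against 0.01 over all genes tested. These were Gpr97, a receptor of immune cells, with 1.44 ± 0.90 CPM in KPS, 8.13 ± 0.12 CPM in KPS-HET and 6.19 ± 2.45 CPM in KP (adjusted p = 0.0421), and Gpr116, a receptor of alveolar type 2 cells that limits surfactant, with 130 ± 18.2 CPM in KPS, 185 ± 23.0 CPM in KPS-HET and 186 ± 7.92 CPM in KP (adjusted p = 0.0366). Without 1 library the Gpr97 call was lost in 7 of 9 fits (adjusted p = 0.0633 to 0.125) and kept without KPS replicate 1, where the fold change was -2.75, and without KP replicate 2. It was also lost with limma-voom (0.0566) and with only the KPS and KP libraries fitted (0.0659). The Gpr116 call was lost without KPS replicate 2 or 3 or any KP library (0.0514 to 0.102).

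In the list around Tmem27, of its partners and amino acid transporters, 0 of 10 tested genes were called and the median log2 fold change was -0.26. Of the p24 cargo receptors, 0 of 9 tested genes were called, and all 9 had a fold change above 0, with a median of 0.18. Tmed2, a p24 protein of most cells, had 681 ± 56.7 CPM in KPS, 600 ± 20.8 CPM in KPS-HET and 605 ± 62.0 CPM in KP. The early secretory pathway in which they act had 0 of 15 genes called, with a median of 0.06. Of the paralemmins 0 of 4 were called, and Palmd stood at 0.96 ± 0.33 (adjusted p = 0.109).

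The immunoglobulin family of Vsig2 held changes in both directions, with 1 lower and 2 higher of 10 tested genes. Gpa33, a cell surface antigen of the intestinal lining, had 8.70, 4.61 and 1.58 CPM in KPS libraries, 22.6 and 43.3 CPM in KPS-HET libraries and 33.7, 25.8, 89.5 and 85.9 CPM in KP libraries. It fell by 3.55 ± 0.67 in KPS against KP (adjusted p = 0.0182), and without KPS replicate 1 the fold change was -4.29. Jam2, a junctional adhesion molecule, rose by 2.71 ± 0.52 to 122 ± 75.4 CPM in KPS, against 18.7 ± 8.74 CPM in KP (adjusted p = 0.0192). Cxadr, the coxsackievirus and adenovirus receptor, rose by 0.69 ± 0.17 to 276 ± 76.3 CPM in KPS, against 171 ± 10.0 CPM in KP (adjusted p = 0.042). Leaving out KPS replicate 2 ended the call of Gpa33 (0.0536), leaving out KP replicate 4 that of Jam2 (0.0547), and leaving out any library but KPS replicate 1 that of Cxadr (0.0538 to 0.147). Cxadr was also not called with limma-voom (0.0536) or with only the KPS and KP libraries fitted (0.0523).

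**Figure D4:**
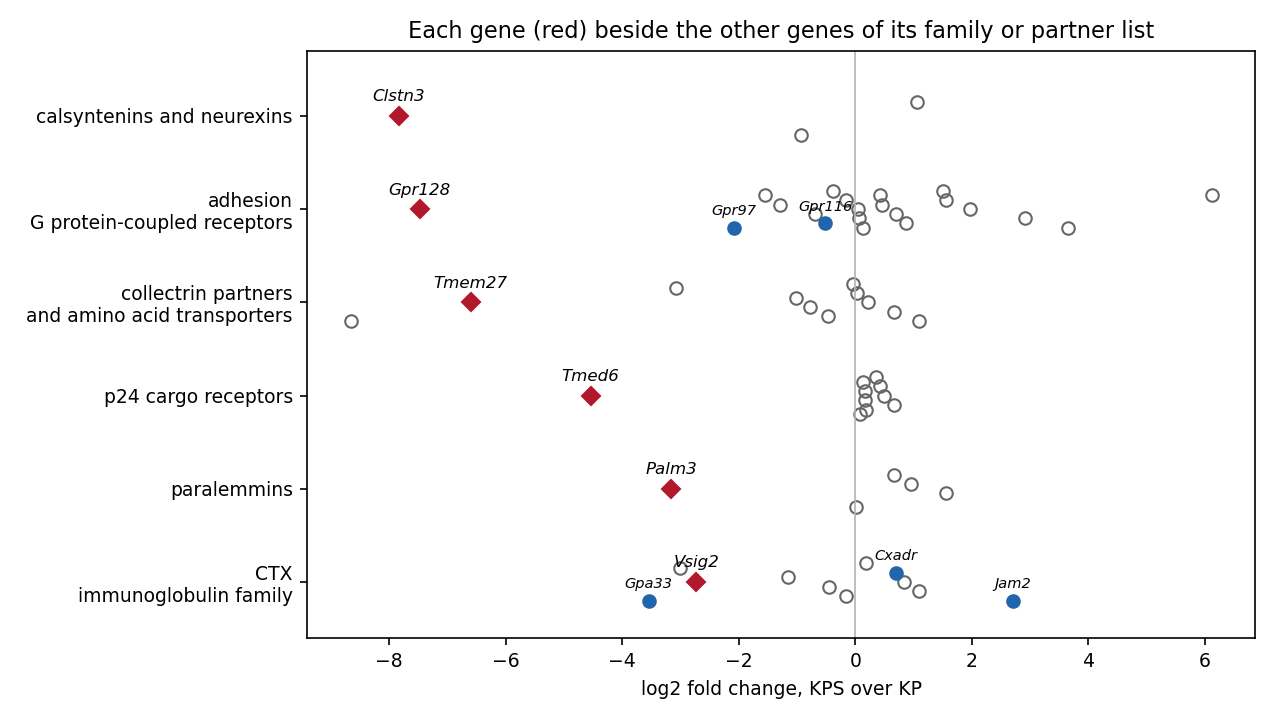
Log2 fold change of KPS over KP (horizontal axis) for the tested genes of the 6 family or partner lists (rows), with the chosen genes as red diamonds, genes called at an adjusted p below 0.05 as filled blue points with names, and others as open circles. The red diamonds lie at or beyond the low end of their lists except in the rows of Tmem27, where Slc7a9 lies lower, and of Vsig2, where Gpa33 and Vsig8 lie lower. The fitted value of Slc7a9, -8.66, rests on 0 counts in KPS, depends on the prior count and is no bound.

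The genes beside the 6 on their chromosomes were read in the same contrast. Among the 3 protein-coding neighbours on each side in the RefSeq order, 36 in all, 32 were tested and 0 were called lower and 1 higher against KP, with a median log2 fold change of -0.25. Over all genes tested 3.28% were called lower and 3.96% higher, so among 32 genes a count of 0 or 1 is near the background share and is not a result about the neighbours. The only called neighbour was Tmem45a beside Gpr128, which was higher, with 2.38 ± 1.73 CPM in KPS, 0 CPM in KPS-HET and 0.0459 ± 0.0599 CPM in KP (log2 fold change over KP 5.64, adjusted p = 0.0354). Leaving out KPS replicate 2 or 3 or any KP library ended that call (0.0581 to 0.0939), with fold changes of 4.96 without KPS replicate 2 and 6.69 without KP replicate 1, and so did limma-voom (0.0646). In KPS against KPS-HET 0 of the 32 were called, with a median of -0.23.

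On the sides of Clstn3 stood Pex5 (-0.32 ± 0.15, adjusted p = 0.218), a receptor for import into peroxisomes, and C1rl (-1.19 ± 0.37, adjusted p = 0.0798), a relative of a complement protease. Farther out were C1ra, a complement protease gene, at -1.21 ± 0.34 (adjusted p = 0.0607), C1s at -1.75 ± 1.36 and Cd163 at -0.82 ± 1.17, and none of them passed the test. Tfg (0.14 ± 0.12, adjusted p = 0.552) stood on the other side of Gpr128, and beyond were Abi3bp (-0.29), Impg2 (0.25) and Tomm70a with 96.8 CPM in KPS and 97.0 CPM in KP. Around Tmem27 stood Siah1b (0.27), Car5b (1.01 ± 0.33, adjusted p = 0.0984), Zrsr2 (0.04), Bmx (-0.73) and Pir (-0.15). Nip7 (-0.15 ± 0.15, adjusted p = 0.615) and Terf2 (-0.31 ± 0.21, adjusted p = 0.42), a telomere protein gene, flanked Tmed6, with Cog8 (-0.22), Pdf (-0.15), Cyb5b (-0.27) and Nfat5 (-0.21) beyond them. Around Palm3 stood 1700067K01Rik (-0.33), Samd1 (0.21), Prkaca (-0.24), Il27ra (-1.23 ± 1.59) and Rfx1 (-0.40). Esam (-1.16 ± 0.31, adjusted p = 0.0535), an adhesion molecule of the same immunoglobulin family, stood beside Vsig2 and missed the threshold narrowly. The others near Vsig2 were Robo4 (-1.20 ± 1.69), Nrgn (-0.93 ± 1.32), Spa17 (-0.21) and Siae (0.39). Vmn2r27 near Clstn3, 2310005G13Rik near Gpr128, Rln3 near Palm3 and Robo3 near Vsig2 were below the filter on low counts and were not tested.

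**Figure D5:**
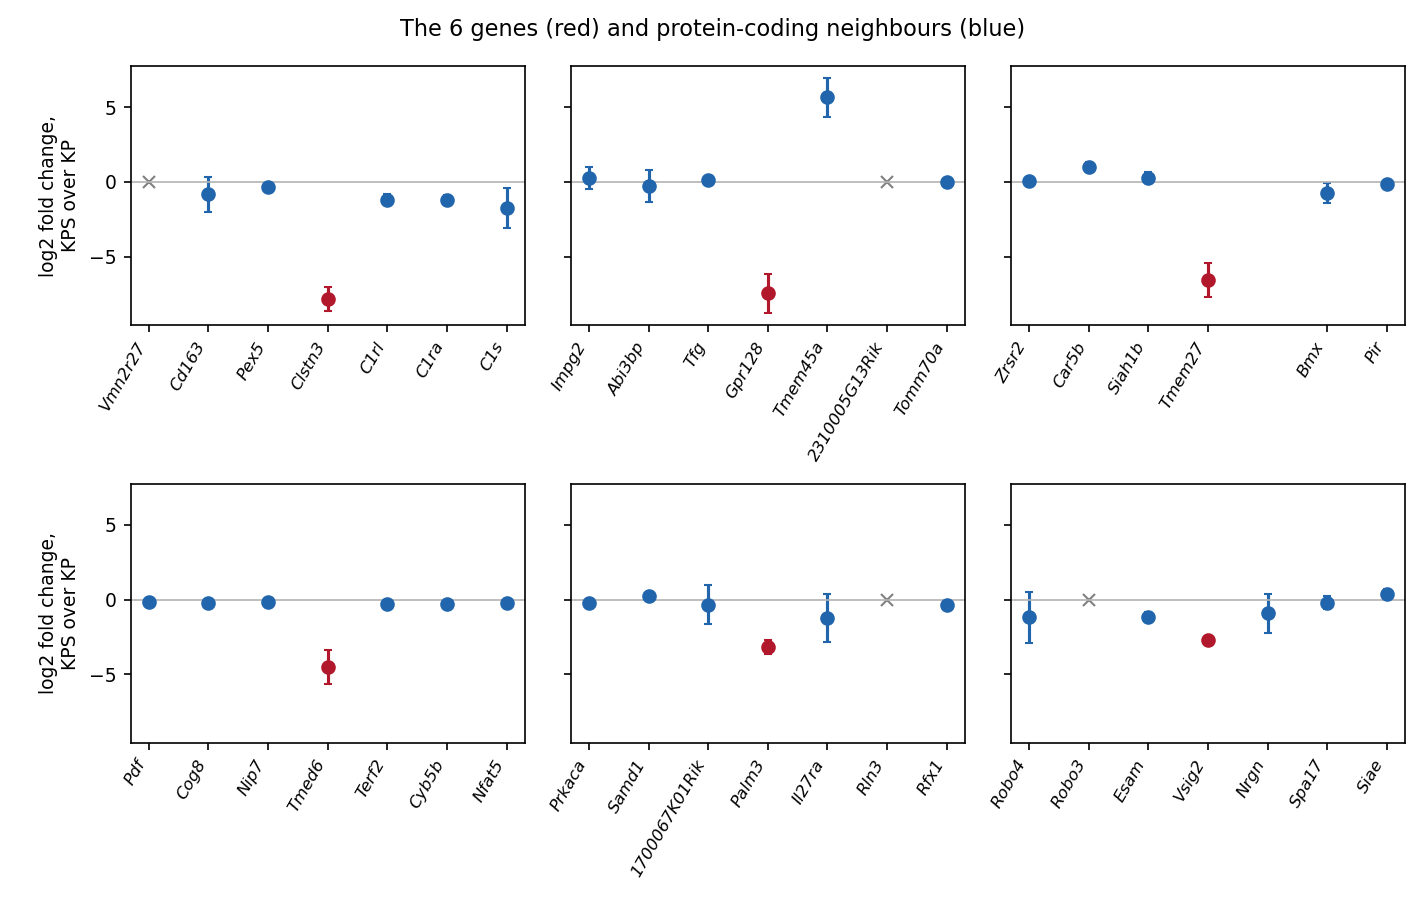
Log2 fold change of KPS over KP with its standard error (vertical axis) for each of the 6 genes (red) and up to 3 protein-coding neighbours on each side in gene order (blue), with grey crosses at 0 for genes that did not pass the low-count filter and have no value. In each panel the red point is the lowest, and Tmem45a is the only neighbour above 2.

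Because Tmem27 and Gpr128 are known from kidney and gut lining, lists of endoderm transcription factors and brush border genes were read beside them in KPS against KP. Of 16 tested endoderm factor genes 3 were lower, 0 were higher and the median was -0.57. Foxa3 fell by 2.34 ± 0.59 (adjusted p = 0.0424), Nkx2-1, a lung lineage factor, fell by 0.68 ± 0.16 to 150 ± 29.8 CPM in KPS, against 241 ± 7.04 CPM in KP (0.0309), and Cebpa, a factor of lung and liver, fell by 0.65 ± 0.15 to 57.1 ± 8.28 CPM in KPS, against 89.8 ± 4.86 CPM in KP (0.0276). Of 18 tested brush border genes 2 were lower, 0 were higher and the median was -0.83. Vil1, villin, an actin bundler of microvilli, had 6.91, 3.20 and 1.27 CPM in KPS libraries, 6.93 and 39.4 CPM in KPS-HET libraries and 53.4, 18.2, 85.3 and 69.9 CPM in KP libraries (-3.88 ± 0.82, adjusted p = 0.0256). Dpp4, a peptidase of the cell surface, fell by 1.42 ± 0.30 to 109 ± 49.8 CPM in KPS, against 293 ± 51.9 CPM in KP (0.023).

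Several of these calls were close to the threshold and were lost when 1 library was left out. Among the 9 fits without 1 library, Foxa3 was called only without KP replicate 2 (0.0518 to 0.12 in the others), Nkx2-1 was not called without KPS replicate 2 or 3 or any KP library (0.0506 to 0.0806), and Cebpa was not called without KPS replicate 1 or 3 or KP replicate 1 (0.0609 to 0.0794). Vil1 was not called without KPS replicate 2 or 3 or KP replicate 1 or 4 (0.0547 to 0.0716) and stood at -4.71 without KPS replicate 1, and Dpp4 was not called without KPS replicate 2 or KP replicate 1 or 4 (0.0533 to 0.0591). Foxa3 and Vil1 were also not called with no filter on low counts (0.0528 for Foxa3 and 0.052 for Vil1) or with limma-voom (0.119 for Foxa3 and 0.0651 for Vil1). In KPS against KPS-HET none of these genes was called. Among 14 other BAF subunit genes, Arid2 was the only one called, higher by 0.48 ± 0.11 in KPS (adjusted p = 0.0325). Without 1 library its call was kept only without KPS replicate 2 or KPS-HET replicate 2 (0.0558 to 0.117 in the others).

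Markers of other cell types were read because some of the 6 genes and their nearest genes are also known from other cells. Of 10 tested hepatocyte genes 3 were lower in KPS than in KP, namely Alb, albumin (-5.50 ± 1.36, adjusted p = 0.0455), Apob (-3.62 ± 0.80, adjusted p = 0.0296) and Apoh (-8.42 ± 2.15, adjusted p = 0.0447), while Tat was at 0 in all 9 libraries and Cps1 was close to 0. Over all genes tested 3.28% were called lower. The median log2 fold change of the 10 was -3.62, and 9 of them had a fold change below 0. The calls of Alb and Apoh were lost in 7 and 8 of 9 fits without 1 library (0.0538 to 0.112, and 0.0585 to 0.126), kept in both cases without KP replicate 2 and for Alb also without KP replicate 3, and Apob was lost in 3, those without KPS replicate 2 or 3 or KP replicate 1 (0.0545 to 0.0802). All 3 calls were also lost with no filter on low counts (0.113 for Alb, 0.0608 for Apob and 0.0563 for Apoh) and with limma-voom (0.216 for Alb, 0.0746 for Apob and 0.343 for Apoh), and those of Alb (0.0567) and Apoh (0.0549) with only the KPS and KP libraries fitted. The part of cells or transcripts of this kind in the levels of the 6 genes was not tested. Without KPS replicate 1 the fold changes were -6.52 for Alb, -4.37 for Apob and -7.82 for Apoh, without KP replicate 3 they were -3.95 for Alb and -6.82 for Apoh, and without KPS replicate 2 that of Apoh was -10.2.

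Acta2, the nearest gene of Clstn3, was the only smooth muscle marker called of 4 tested, with 3.34 ± 1.14 CPM in KPS, 71.2 ± 17.6 CPM in KPS-HET and 120 ± 68.9 CPM in KP. It was lower in KPS than in KP (-5.16 ± 0.52, adjusted p = 0.00175). The median log2 fold change of the 4 was 0.33, and 2 of them had a fold change below 0. The 10 tested macrophage markers had a median log2 fold change of 3.06 in KPS over KP, against 0.01 over all genes tested, and 1 of them was called. Their sum of 3448 to 5594 CPM in KPS, 3064 to 7236 CPM in KPS-HET and 3530 to 9025 CPM in KP was mostly Lyz2, lysozyme (-0.48 ± 0.36, adjusted p = 0.466). Without Lyz2, left out after the values were seen, the other 9 summed to 434, 51.3 and 77.0 CPM in KPS libraries, 107 and 23.4 CPM in KPS-HET libraries and 32.5, 31.6, 26.4 and 43.9 CPM in KP libraries. All 3 KPS libraries were thus above all 4 KP libraries, with KPS replicate 1 the highest. Itgax, an integrin of these cells, had 30.4 ± 33.8 CPM in KPS, 6.71 ± 7.89 CPM in KPS-HET and 2.90 ± 1.46 CPM in KP and did not pass the test against KP (adjusted p = 0.0523). The summed endothelial markers were 21.9 to 87.2 CPM in KPS, 10.6 to 18.8 CPM in KPS-HET and 9.93 to 21.0 CPM in KP, and the summed fibroblast markers were 7.53 to 63.8 CPM in KPS, 1.28 to 8.56 CPM in KPS-HET and 5.30 to 8.08 CPM in KP. Besides Acta2, which was lower in KPS, 1 gene was higher in KPS in each of the lists of macrophages (Marco), endothelium (Vwf), fibroblasts (Col1a1), mesothelium (Msln) and club cells (Aldh1a1), and 1 was lower in the lists of B cells (Cd79b) and alveolar type 2 cells (Sftpb). Without 1 library these calls were lost in 3 of 9 fits (Vwf and Msln) to 8 of 9 fits (Col1a1 and Sftpb). With limma-voom those of Marco (0.248), Vwf (0.0737) and Col1a1 (0.174) were lost, with no filter on low counts those of Marco (0.0818) and Msln (0.0561), and with only the KPS and KP libraries fitted those of Col1a1 and Sftpb (0.0538 for both). The fold change of Marco was 4.52, and 1.83 without KPS replicate 1, while Col1a1 stood at 2.64 and Vwf at 2.28, with 1.45 and 1.49 without KPS replicate 3. No gene was called in the lists of neutrophils, T and NK cells, alveolar type 1 cells, ciliated cells and neurons. The part of any of these cell types in the levels of the 6 genes was not tested.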

How the data were processed

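The authors deposited 1 table of estimated counts per gene for 9 libraries, for which the submitters' processing notes list RSEM 1.3.1, the aligner Bowtie 1.2.3 and build mm9. Annotation, strandedness and any filter are not given in the sources used. Counts were rounded (a change of at most 0.5). filterByExpr (minimum count 10, minimum total 15) left 15663 of 23224 genes and removed 7561. Groups were compared with edgeR 4.0.16 (R 4.3.3), by its two-sided quasi-likelihood F test after TMM scaling, with robust estimation, a coefficient for each group and 6 degrees of freedom. P-values were adjusted by Benjamini-Hochberg over all genes, with a threshold of 0.05, and the fit was tested on simulated data. The common biological coefficient of variation was 0.43. Standard errors are the log2 fold change divided by the root of F, and CPM uses the TMM totals. The 14 alternatives were scaling by RLE, no filter, limma 3.58.1 (voom), DESeq2 1.42.0, only the groups compared, and leaving out each library.

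Replicates were numbered in accession order. The 6 genes, the gene lists (6 family, 4 context and 14 cell type lists) and the motifs were chosen with earlier results of these data known. Named are the 6 genes, Smarca4, called or nearest family genes, up to 4 called genes of each context list, the 3 neighbours on each side (1 is not reported) and the 3 nearest genes in pattern, beside called cell type markers. Promoters come from RefSeq on GRCm38.p6, another build than that of the counts, and were used for sequence only. GENCODE gave exon lengths and overlaps. Some items of the design and of the lists are not reported here.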

Additional observations from a re-analysis of the deposited data

Results flagged for a closer look

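Gpr128 had 61.6 CPM in KP replicate 3, against 14.1 CPM in the next highest KP library, and this gap took up 0.859 of the range of the 4 KP libraries, above the 95% critical value of Dixon's test for 4 samples. Chance alone gives such a gap in about 1 in 20 groups. The other 5 genes had no KP library that stood apart by this measure.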

How the results depend on the processing

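The log2 fold changes of the 6 genes in KPS against KP and KPS against KPS-HET kept their direction in all 14 alternatives, from -2.59 (Vsig2) downward against KP and from -1.62 (Tmed6) downward against KPS-HET. In KPS-HET against KP none of the 6 was called in any alternative, and only Gpr128 turned its direction, to 0.388 without KP replicate 3 (-1.33 to 0.388 over the fits without 1 library). The number of genes called in KPS against KP was 1134, with 2269 by DESeq2 and 505 to 956 without 1 library. In KPS against KPS-HET it was 146, with 976 by DESeq2, 15 with only the 2 groups compared and 1 to 150 without 1 library. In KPS-HET against KP it was 0, with 2 by DESeq2. Of the family and partner genes 5 were called in KPS against KP, with 14 by DESeq2, 3 with only the 2 groups compared and 1 to 5 without 1 library. The causes were not tested. Depth limits Clstn3 and Gpr128 in KPS, with 9 counts each over 3 libraries. No paired analysis was made, because the groups were mice of different genotypes and the labels give no pairing between their libraries. The replicate numbers used here carry no pairing.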
